A study of Oryza sativa with 36 samples.

Results

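Insect feeding was compared with needle wounding in the rice variety ‘Rathu Heenati’ (RH) 6 h after treatment. RH is an indica variety from Sri Lanka that resists the brown planthopper (BPH). The members are the 3 arrays of BPH-infested RH seedlings (R6P) and the 3 arrays of needle-punctured RH seedlings (R6N), chosen by their sample labels, 6 of the 36 arrays of the series. The whole series holds shoots of 2-week-old seedlings of RH and of the susceptible indica variety ‘Taichung Native 1’ (TN1), infested, punctured or grown untreated, at 6 and 24 h, with 3 biological replicates per group on the Affymetrix Rice Genome Array. One replicate was the pool of the 10 seedlings of 1 pot. For R6P, about 100 nymphs of the third instar were placed on a pot, 10 per seedling on average, inside a net cage. For R6N, the lower end of every plant received 15 needle pricks. The amounts of tissue damaged by nymphs and by needle are not stated to be matched, and the sources used here name a net cage only for the infested pots, so that damage, cage and insect cannot be told apart. Untreated RH seedlings of the same time point (R6C, 3 arrays) gave the level without either treatment. The same pair of treatments in TN1 at 6 h (T6P and T6N) and in RH at 24 h (R24P and R24N) was set beside R6P and R6N, on 6 arrays each that R6P and R6N do not share.

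BPH is a sap-sucking insect. It threads its stylets between and into cells to reach the phloem, leaves a salivary sheath and secretes saliva, so that it injures tissue far less visibly than a chewing insect. Wounding of a leaf leads to a burst of jasmonate. Its active conjugate with isoleucine binds the receptor COI1 together with the JAZ repressors, which are then degraded and release transcription factors such as MYC2. JAZ genes are themselves targets of that release, which closes a feedback loop. Linalool and other terpenoids are among the volatiles that rice plants release when planthoppers feed on them, and proteinase inhibitors, chitinases and peroxidases are classical products of wounded or attacked leaves.

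Array medians were between 36.5 and 38.4 intensity units in the 6 arrays, and the correlation of log2 values between replicate arrays was 0.996 in R6P and between 0.996 and 0.997 in R6N. Intensity is the deposited signal on a linear scale. No detection calls were among the values used here, so that an intensity below the array median was not shown to be above background, and a fold change against such a level may understate the change. Markers of green tissue summed to 62479 to 66191 in R6P, 65240 to 70757 in R6N and 64511 to 65316 in R6C (7 genes). Root markers, which should be scarce in shoots, summed to 1138 to 1481 in R6P, 1107 to 1130 in R6N and 1109 to 1375 in R6C, with 7 of the 14 genes below the array median. Markers of phloem summed to 17895 to 18387, 17298 to 18174 and 16817 to 17815 in R6P, R6N and R6C (3 genes). No marker gene was differential between R6P and R6N. In shoots taken whole, fewer cells of a type and less RNA per cell cannot be told apart.

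A probe set was called differential at an adjusted p under 0.05 (limma, Benjamini-Hochberg over 57194 probe sets) with at least a 2-fold change. Between R6P and R6N, 114 probe sets were differential, 0.199% of those tested. Of these, 71 were up-regulated (0.124%) and 43 were down-regulated (0.0752%) in R6P relative to R6N. Without the 2-fold minimum, 401 probe sets passed (0.701%), 198 upward (0.346%) and 203 downward (0.355%). Among the 114, 80 probe sets belonged to 1 annotated gene each, 77 genes in all, and 34 had no gene in the annotation. Only 15 probe sets carried a gene name beyond a locus number, 13.2% of the 114 against 5.58% of all probe sets, 10 of them up-regulated and 5 down-regulated. The log2 fold change reached 3.69 upward and -3.05 downward, with medians of 1.37 and -1.37. At least a 4-fold change was found in 9 up-regulated and 4 down-regulated probe sets. The R6N mean lay below the array median in 20 of the 71 up-regulated probe sets, and the R6P mean lay below it in 17 of the 43 down-regulated ones. The calls were made from these same arrays, which favours groups that do not overlap, so that a lack of overlap is no separate support. The 3 R6P arrays lay outside the range of the 3 R6N arrays in 113 of the 114 probe sets, against 20.8% of all probe sets on the array. The exception was the unnamed LOC4341806, chosen here for its overlap, whose call was lost without R6N replicate 1, R6N replicate 3, R6P replicate 2 or R6P replicate 3 (adjusted p up to 0.34).

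The arrays of a group did not contribute alike. In the up-regulated probe sets, R6P replicate 1 was the lowest infested array in 48 of 71 (67.6%, against 35.1% of all probe sets), and R6P replicate 3 was the highest in 35. In the down-regulated probe sets, R6N replicate 1 was the highest punctured array in 33 of 43 (76.7%, against 35.3% of all probe sets), and R6N replicate 3 was the lowest in 28 (65.1%, against 37%). Without R6N replicate 1 the count was 61 up-regulated and 25 down-regulated probe sets. Calls that held when each of the 6 arrays was left out in turn numbered 59 of the 114, 41 of the 71 up-regulated and 18 of the 43 down-regulated ones.

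**Figure D1:**
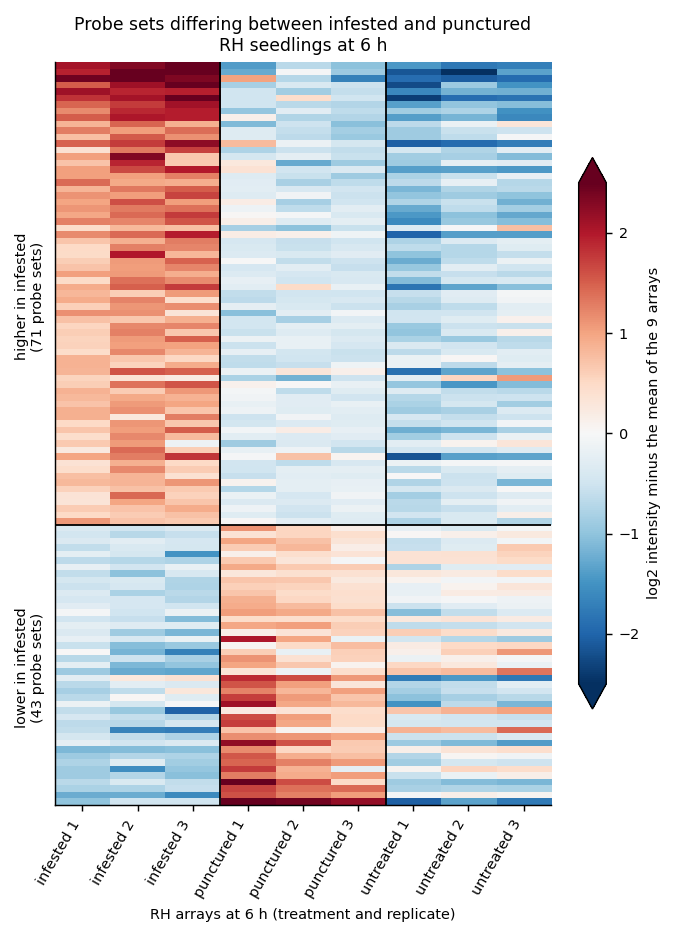
Log2 intensity of the 114 differential probe sets (rows, largest rise at the top) in the infested, punctured and untreated RH arrays at 6 h (columns), each row centred on its own mean. In the upper 71 rows the infested arrays stand above the other arrays in most rows, and in the lower 43 rows the punctured arrays are the high ones in most rows.

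The untreated seedlings placed the differences. For 48 of the 71 up-regulated probe sets, R6N lay within 2-fold of R6C while R6P lay at least 2-fold above it. Another 13 were at least 2-fold above R6C in both treatments and higher in R6P. For 9, each treatment lay within 2-fold of R6C, with R6P above and R6N below it, and in LOC4341678, whose call was lost without any one array (adjusted p up to 0.27), only R6N departed, downward. The median log2 fold change of the 71 over R6C was 1.61 in R6P and 0.27 in R6N. The 43 down-regulated probe sets were placed otherwise. In 19 of them R6P lay within 2-fold of R6C and R6N at least 2-fold above it, and in 11 R6N lay within 2-fold and R6P at least 2-fold below. Of the others, 10 lay within 2-fold of R6C in both treatments, 2 were at least 2-fold above R6C in both and 1, Os.6838.1.S1_at, lay on opposite sides. Their median log2 fold change over R6C was -0.44 in R6P and 1.01 in R6N. Measured against untreated seedlings alone, 181 probe sets were up-regulated (0.316%) and 57 down-regulated (0.0997%) in R6P, and 89 up-regulated (0.156%) and 12 down-regulated (0.021%) in R6N. The comparisons with R6C share the R6P or the R6N arrays with R6P/R6N, so these values are set side by side only.

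Genes of terpenoid synthesis were among the largest named differences. The linalool synthase gene LIS (LOC4328124, probe set Os.57103.1.S1_at), whose product makes the volatile monoterpene alcohol linalool, had intensities of 587, 710 and 1156 in R6P, 118, 226 and 118 in R6N, and 32.6, 44.5 and 46.3 in R6C. All infested arrays lay above all punctured arrays, which in turn lay above all untreated arrays. LIS was 5.35-fold higher in R6P than in R6N (log2 fold change 2.42 ± 0.26 SE, adjusted p = 7.3e-07), and its log2 fold changes over R6C were 4.27 in R6P and 1.85 in R6N. DXPS (LOC4342614, Os.6450.1.S1_at) encodes the first enzyme of the plastid pathway that supplies the precursors of monoterpenes. It had 317, 434 and 543 in R6P, 166, 157 and 126 in R6N, and 59.8, 79.9 and 67.1 in R6C. The order of the groups was that of LIS and no arrays overlapped. DXPS was 2.84-fold higher in R6P than in R6N (log2 fold change 1.50 ± 0.19 SE, adjusted p = 2.4e-05). Both calls held without each array in turn.

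Of the 36 measured genes of terpenoid synthesis, LIS and DXPS were up-regulated and none was down-regulated. Of all probe sets, 0.124% were up-regulated and 0.0752% down-regulated. The median log2 fold change of the 36 was 0.05, beside 0.02 over all probe sets. The study's annotation ties the term lyase activity with magnesium ion binding, which terpene synthases carry, to 4 of the 114 probe sets, and all 4 were up-regulated. How many probe sets of the whole array carry the term was not counted, so that the 4 are not a result about the term. Besides LIS these were LOC4335518 with a log2 fold change of 1.22, LOC4344755 with 1.13 and Os.26852.1.A1_at with 1.12, named here after their values were seen. Os.26852.1.A1_at had 642, 817 and 1143 in R6P against 380, 450 and 344 in R6N. LOC4344755 was dim, with 34.9, 22.7 and 45.9 in R6P against 13.1, 17.8 and 15 in R6N, all of its punctured arrays below the array median. These last 3 calls were fragile. That of LOC4335518 held only without R6N replicate 3 (otherwise adjusted p up to 0.2), that of LOC4344755 only without R6P replicate 2 (up to 0.36) and that of Os.26852.1.A1_at only without R6P replicate 1 (up to 0.34).

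**Figure D2:**
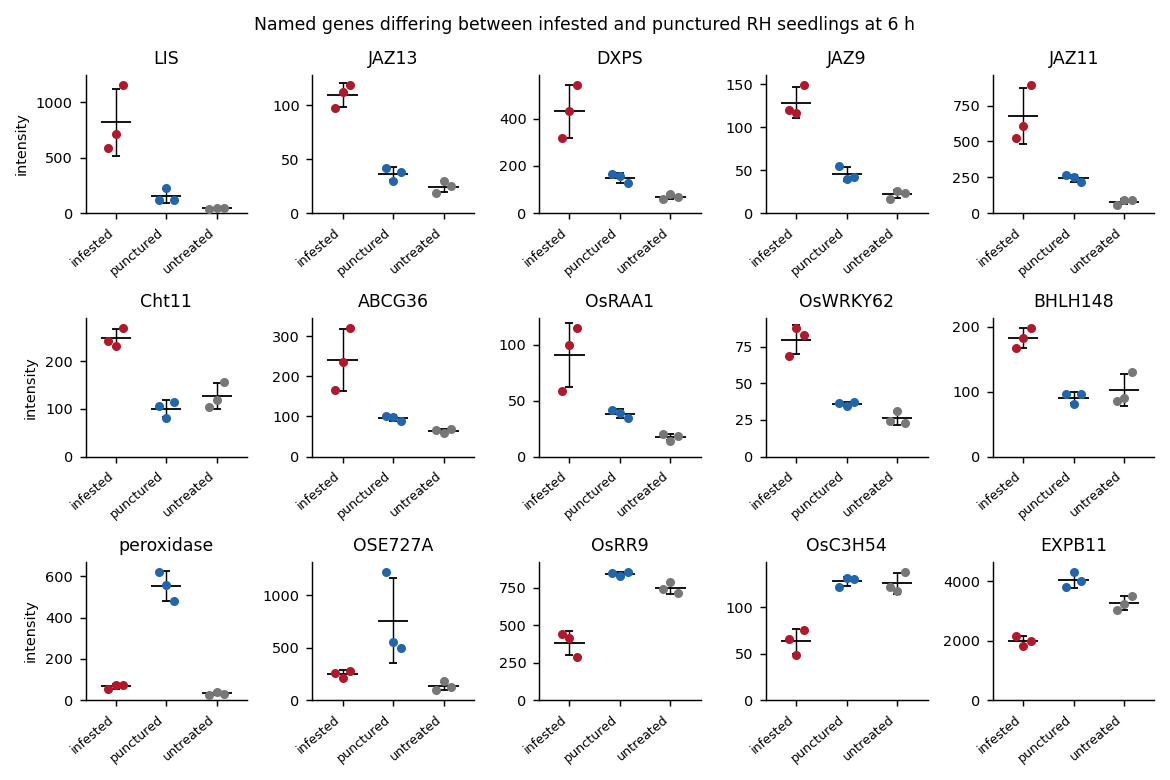
Intensity (linear axis from 0) of the 15 named differential genes in infested, punctured and untreated RH seedlings at 6 h. Dots are arrays, wide bars are means and error bars are SD (n = 3). The first 10 panels hold the up-regulated genes, where infested arrays lie above punctured ones, and the last 5 the down-regulated genes, where they lie below.

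JAZ repressor genes rose in part. JAZ13 (LOC4348531), JAZ9 (LOC4331832) and JAZ11 (LOC4331833) were up-regulated among the 13 JAZ genes measured, and none was down-regulated. Over all probe sets, 0.124% were up-regulated and 0.0752% down-regulated. The median log2 fold change of the 13 was 0.47, beside 0.02 over all probe sets, and 9 of the 13 were above 0. Several numberings of the rice JAZ genes exist, and the names used here are those of the annotation. JAZ9 and JAZ11 are adjacent genes in the RefSeq annotation.

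JAZ9 (Os.8088.1.S1_at) had 120, 117 and 149 in R6P, 55.1, 39.9 and 42.2 in R6N, and 16.6, 25.8 and 23.8 in R6C. Its log2 fold change was 1.50 ± 0.22 (SE, adjusted p = 0.00015), and the 3 groups did not overlap. JAZ13 (Os.46849.1.S1_at) had 97.7, 112 and 119 in R6P, 41.8, 29.6 and 38.2 in R6N, and 19.1, 29.3 and 25.3 in R6C. Its punctured arrays were close to the array median and its lowest punctured array was next to its highest untreated array, while every infested array stood clear of both. The log2 fold change was 1.59 ± 0.28 (SE, adjusted p = 0.0022). JAZ11 (Os.10356.1.S1_at) had 522, 611 and 895 in R6P, 263, 250 and 214 in R6N, and 57.9, 89.2 and 88.6 in R6C. Its groups did not overlap, and its log2 fold change was 1.45 ± 0.29 (SE, adjusted p = 0.0092). The JAZ11 call was lost without R6N replicate 3 or without R6P replicate 3, with an adjusted p of up to 0.11, while those of JAZ9 and JAZ13 held without each array in turn.

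The other JAZ genes differed less. JAZ5 and JAZ10 had log2 fold changes of 0.64 (adjusted p = 0.28) and 0.60 (adjusted p = 0.084), and another probe set of JAZ10 had 0.49 (adjusted p = 0.036). JAZ8 had 1022, 1380 and 1430 in R6P and 883, 932 and 865 in R6N. Its log2 fold change was 0.50 (adjusted p = 0.24). JAZ12 and JAZ6 had 0.47 and 0.29, and JAZ7, JAZ4, JAZ1, JAZ2 and JAZ3 lay between -0.18 and 0.05. Over untreated seedlings, 7 of the 13 JAZ genes were up-regulated in R6P, against 0.316% of all probe sets. In R6N 3 of the 13 were, against 0.156% of all probe sets.

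**Figure D3:**
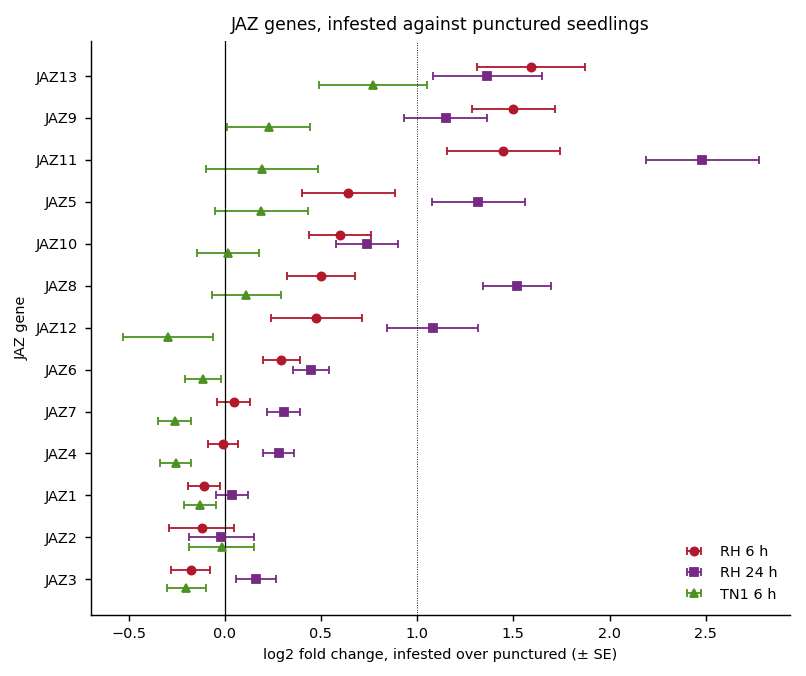
Log2 fold change (± SE) of infested over punctured seedlings for 13 JAZ genes in RH at 6 h, RH at 24 h and TN1 at 6 h. The dotted line marks a log2 fold change of 1 and the solid line 0. In RH at 6 h JAZ13, JAZ9 and JAZ11 lie beyond 1, and in TN1 at 6 h no JAZ gene was differential.

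None of the 19 measured genes of jasmonate synthesis was differential, and their median log2 fold change was -0.02. Only AOS, the allene oxide synthase that commits the pathway to jasmonate, passed the adjusted p, with 367, 360 and 448 in R6P, 242, 285 and 254 in R6N and 178, 237 and 221 in R6C. Its infested arrays lay above all others, by a log2 fold change of 0.58 (adjusted p = 0.0018), under the 2-fold minimum. The allene oxide cyclase gene, the next step, had -0.02. Lipoxygenase genes act upstream. LOX3 had 0.03, the probe sets of CM-LOX2 lay between -0.26 and 0.02, and CM-LOX1 had a log2 fold change of -1.09 (adjusted p = 0.21). Of the 15 measured ethylene genes none passed the adjusted p, with ACO1, an ethylene-forming enzyme, at -0.06 and ACC2 at 0.02.

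Among genes tied to defence, Cht11 (LOC4331519, Os.1191.1.S1_at), a chitinase, an enzyme that cleaves the polymer of fungal walls and insect cuticle, was up-regulated. It had 243, 232 and 269 in R6P, 106, 81.3 and 115 in R6N, and 105, 118 and 157 in R6C. Infested arrays lay above all others, whereas punctured and untreated arrays overlapped. The log2 fold change of R6P over R6N was 1.31 ± 0.29 (SE, adjusted p = 0.02), and the call was lost without R6N replicate 1, R6N replicate 2, R6P replicate 2 or R6P replicate 3 (adjusted p up to 0.14). It was the only differential gene of 14 chitinases, whose median log2 fold change was -0.12. Another gene named chitinase (Os.3121.1.S1_at) ran the other way, with a log2 fold change of R6P over R6N of -0.86 (adjusted p = 0.023, under 2-fold). It had 182, 228 and 210 in R6P, 450, 343 and 338 in R6N, and 196, 218 and 259 in R6C. It did not pass without R6N replicate 1, R6N replicate 2, R6P replicate 1 or R6P replicate 3 (adjusted p up to 0.19). The pathogenesis-related gene PBZ1 had 705, 1495 and 755 in R6P, 444, 285 and 167 in R6N, and 78.4, 160 and 131 in R6C. Its groups did not overlap, but its log2 fold change of R6P over R6N, 1.74, did not pass the test (adjusted p = 0.053). Over R6C its log2 fold changes were 2.97 in R6P (adjusted p = 6.2e-05) and 1.23 in R6N (adjusted p = 0.43).

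OsWRKY62 (LOC4347070, Os.48082.1.S1_at), a WRKY factor known as a repressor in rice immunity to bacterial blight, had 68.4, 87.4 and 83.1 in R6P, 36.7, 34.5 and 37.1 in R6N, and 24.4, 31 and 23 in R6C. The groups did not overlap, although R6N was near the array median. Its log2 fold change was 1.13 ± 0.21 (SE, adjusted p = 0.0034) and held without each array in turn. It was the only differential gene of 6 WRKY genes, and OsWRKY76 had 239, 270 and 241 in R6P against 124, 126 and 151 in R6N (log2 fold change 0.91, adjusted p = 0.028). OsWRKY76 did not pass without R6N replicate 1, R6N replicate 2, R6P replicate 2 or R6P replicate 3 (adjusted p up to 0.17). BHLH148 (LOC4334060, Os.7116.1.S1_at), a basic helix-loop-helix factor reported to bind JAZ proteins, had 166, 183 and 197 in R6P, 95.7, 81 and 96 in R6N, and 85.3, 90.5 and 131 in R6C. Its fold change of 2.01 (log2 1.00 ± 0.20 SE, adjusted p = 0.0073) was at the 2-fold minimum, and the log2 fold change was 0.96 after median centring, 0.92 without R6N replicate 2 and 0.94 without R6P replicate 3. Its adjusted p was up to 0.063 with 1 array left out.

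A pair of further named genes rose. ABCG36 (LOC4327728, Os.467.1.S1_a_at), an ABC transporter of the pleiotropic drug resistance type, had 166, 235 and 319 in R6P, 102, 99.3 and 88.8 in R6N, and 65.2, 59.1 and 69.6 in R6C. It was the only differential gene of 14 ABC transporters, with a log2 fold change of 1.26 ± 0.20 (SE, adjusted p = 0.00053) and no overlap between groups. A second probe set of the gene had a log2 fold change of 0.13 (adjusted p = 0.76). That probe set was far below the array median, with 5.33, 5.19 and 5.36 in R6P and 4.95, 4.70 and 4.88 in R6N. OsRAA1 (LOC4326229, Os.487.1.S1_at), known for its part in root growth, had 58.9, 99.6 and 115 in R6P, 41.8, 39.1 and 34.2 in R6N, and 19.9, 14.2 and 18.3 in R6C. Its groups did not overlap, with a log2 fold change of 1.20 ± 0.26 (SE, adjusted p = 0.015), but its call held only without R6P replicate 1 and was lost without each of the other 5 arrays (adjusted p up to 0.16).

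The largest downward difference of R6P from R6N belonged to a gene named peroxidase (LOC4344277, Os.2237.1.S1_at). Plant peroxidases of the cell wall cross-link phenolics with hydrogen peroxide. Its intensities were 52.8, 74.9 and 74.4 in R6P, 621, 557 and 480 in R6N, and 25.7, 41.5 and 30.8 in R6C. Punctured arrays lay far above all others, and infested arrays lay above the untreated ones. The gene was 8.27-fold lower in R6P than in R6N (log2 fold change -3.05 ± 0.34 SE, adjusted p = 1.5e-06), with log2 fold changes over R6C of 1.06 in R6P (adjusted p = 0.082) and 4.10 in R6N. An unnamed locus with the annotated term peroxidase activity, LOC4337232 (Os.55918.1.S1_at), had 12.3, 12.5 and 14.4 in R6P, 68.4, 55.4 and 57.2 in R6N, and 12.1, 12.6 and 12.3 in R6C. R6P and R6C were alike far below the array median and only R6N was above it (log2 fold change of R6P over R6N -2.20, adjusted p = 1.5e-07). Both calls held without each array in turn. Of the 3 genes in the list of named peroxidases, the first was the only differential one.

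Proteinase inhibitors with a call were lower too. OSE727A (LOC9271230, Os.37729.1.S1_s_at), an inhibitor of the Bowman-Birk trypsin type by its synonyms, had 257, 210 and 279 in R6P, 1225, 552 and 496 in R6N, and 101, 179 and 129 in R6C. R6N replicate 1 was more than 2-fold above the other punctured arrays, and the groups did not overlap. The log2 fold change was -1.49 ± 0.37 (SE, adjusted p = 0.048). The call was lost without each array but R6N replicate 3 (adjusted p up to 0.37), and the probe set may bind several related transcripts. LOC4352127, annotated as a serine endopeptidase inhibitor and named here after its values were seen, had 100, 163 and 129 in R6P against 529, 334 and 259 in R6N (log2 fold change -1.48, adjusted p = 0.011). Its call was lost without R6N replicate 1, R6P replicate 1 or R6P replicate 3 (adjusted p up to 0.14). Of 12 named protease inhibitors OSE727A was the only differential one, and their median log2 fold change was 0.00.

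Among the 114 probe sets, 3 carried the annotated term lipid transport and all 3 were lower in R6P than in R6N. How many of the whole array carry it was not counted, so that the 3 are not a result about the term. None of the 5 measured genes of the lipid transfer list passed the adjusted p, and their median log2 fold change was -0.12. Os.6838.1.S1_at, which has no gene in the annotation, had 128, 127 and 100 in R6P, 912, 723 and 626 in R6N, and 293, 333 and 316 in R6C. It was the only differential probe set that lay at least 2-fold below R6C in R6P and at least 2-fold above it in R6N, with a log2 fold change between both of -2.66 (adjusted p = 3.6e-08). LOC4349327 and LOC4350386, named after their values were seen, had log2 fold changes of -1.36 and -1.16. LOC4350386 had 317, 300 and 304 in R6P against 738, 767 and 578 in R6N, and LOC4349327 had 39.4, 44.8 and 36.3 against 139, 82.8 and 94.8, its call being lost without R6N replicate 1 (adjusted p = 0.072). The R6C mean of LOC4350386 was 254, below its R6P mean of 307, and that of LOC4349327 was 63.4, above its R6P mean of 40.2. LOC4332568, annotated with response to biotic stimulus and also chosen after its values were seen, had 414, 577 and 388 in R6P, 1939, 1696 and 1492 in R6N, and 388, 525 and 499 in R6C. Infested and untreated arrays shared one range while the punctured arrays lay above it (log2 fold change of R6P over R6N -1.91, adjusted p = 5.8e-08).

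A different kind of fall was found in 2 named genes whose punctured arrays were near the untreated ones. OsRR9 (LOC4349747, Os.37430.1.S1_at), a response regulator of cytokinin signalling, had 443, 414 and 290 in R6P, 845, 829 and 855 in R6N, and 738, 788 and 712 in R6C. Infested arrays lay below all others, with a log2 fold change of R6P over R6N of -1.16 ± 0.19 (SE, adjusted p = 0.00083), which was -0.98 and so under 2-fold without R6P replicate 3. OsC3H54 (LOC4344566, Os.23145.1.S1_at), a zinc finger protein of the CCCH type, had 65.5, 48.9 and 75.4 in R6P, 122, 131 and 131 in R6N, and 122, 117 and 138 in R6C. Its log2 fold change was -1.04 ± 0.21 (SE, adjusted p = 0.0096), and the call was lost without R6N replicate 2 or R6P replicate 2 (adjusted p up to 0.13). OsRR9 was the only differential gene of 35 in the cytokinin list, and the cytokinin-degrading oxidase CKX5 had a log2 fold change of 0.68 (adjusted p = 0.025). CKX5 did not pass without R6N replicate 1, R6N replicate 2, R6P replicate 2 or R6P replicate 3 (adjusted p up to 0.21).

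EXPB11 (LOC4330213, Os.7602.1.S1_at), a beta-expansin of the kind that loosens grass cell walls, fell. It had 2149, 1833 and 1994 in R6P, 3810, 4309 and 3987 in R6N, and 3036, 3244 and 3502 in R6C. The groups did not overlap, with R6P lowest and R6N highest (log2 fold change of R6P over R6N -1.02 ± 0.16 SE, adjusted p = 0.00047). The fold change of 2.03 fell below 2 after quantile normalization and without R6N replicate 2 or R6P replicate 2. Of 68 cell wall and expansin genes, EXPB11 alone was differential, and 5 passed the adjusted p, all downward. The other 4 were EXP1 at -0.93 (adjusted p = 0.03), EXP2 at -0.78 (adjusted p = 0.02), CSLE1 at -0.62 (adjusted p = 0.049) and EXPB3 at -0.45 (adjusted p = 0.043), and each of them failed the adjusted p without at least 4 of the 6 arrays. The median log2 fold change of the 68 was -0.06. Over all probe sets, 0.346% passed the adjusted p upward and 0.355% downward.

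In the phenylpropanoid list of 25 genes, which leads to lignin and salicylate, none was differential and 3 passed the adjusted p. Over all probe sets 0.701% passed it, and the median log2 fold change of the 25 was -0.004. PAL06, a phenylalanine ammonia-lyase at the entry of the pathway, had 124, 112 and 106 in R6P against 213, 248 and 183 in R6N (log2 fold change -0.91, adjusted p = 0.00045). The coumarate ligase gene 4CL5 had 110, 136 and 117 in R6P against 255, 231 and 203 in R6N (log2 fold change -0.92, adjusted p = 0.017). CAD6, a cinnamyl alcohol dehydrogenase, ran upward (log2 fold change 0.71, adjusted p = 0.045). Untreated levels of these 3 genes are not given here, so the values do not show whether R6P or R6N departed from R6C. Over R6C, 1 of the 25 genes was up-regulated in R6P and 1 in R6N. The study lists OsPAL6 as up-regulated in R6P over R6C, which is another comparison. The PAL06 difference held without each array, that of 4CL5 did not pass without R6N replicate 1, R6N replicate 2, R6P replicate 1 or R6P replicate 3 (adjusted p up to 0.13), and that of CAD6 did not pass without any one array (adjusted p up to 0.3).

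Across all 42 lists by function, 9 held a differential gene and 33 held none. The share of differential probe sets over the whole array was 0.199%. Medians of lists with at least 5 genes lay between -0.13 and 0.47, the highest being that of the JAZ list. Lists with no differential gene included those for NAC, MYB, AP2/ERF and bZIP factors, auxin, gibberellin, calcium signalling, heat shock, aquaporins, sugar transport, photosynthesis and antioxidant enzymes. Some members of these passed the adjusted p without a 2-fold change. On the log2 scale, MYB2 was lower in R6P than in R6N by 0.90 (adjusted p = 0.0051) and the morning clock factor CCA1 by 0.96 (adjusted p = 0.0086). The evening clock gene OsPCL1 was at 0.68 (adjusted p = 0.0067). IAA2, an auxin-response repressor, was lower in R6P by 0.83 (adjusted p = 0.013), and the sugar transporter gene MST3 by 0.82. Untreated levels are not given for the genes of this paragraph. The vacuolar iron transporter gene OsVIT1.2 had a log2 fold change of 0.80, the factor NAC067 0.79 and the MADS-box gene FDRMADS7 0.93 (adjusted p = 0.014). Of the 37 list genes that passed the adjusted p, 12 passed it without each array in turn, MYB2 among them and the other 7 genes of this paragraph not.

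Among loci without a name the largest rises were those of LOC4343433, LOC4349113 and LOC4324081. LOC4343433 (Os.55961.1.S1_at) had 223, 260 and 633 in R6P, 19.9, 33 and 25.7 in R6N, and 19.5, 15.2 and 16.1 in R6C. R6P replicate 3 was more than 2-fold above the other infested arrays, and all punctured and untreated arrays were below the array median, so that the log2 fold change of 3.69 (adjusted p = 5.4e-06) may be a lower bound. LOC4349113 (Os.46872.1.S1_at), annotated with monooxygenase activity and heme binding as cytochrome P450 enzymes are, had 216, 410 and 607 in R6P, 23.9, 54.8 and 30.3 in R6N, and 13, 10.2 and 22.4 in R6C (log2 fold change 3.47, adjusted p = 3.7e-06). LOC4324081 (Os.6389.1.S1_at) had 293, 302 and 273 in R6P, 109, 33 and 16.7 in R6N, and 14.4, 13 and 14.3 in R6C. Its infested arrays were tight and its punctured arrays spread over more than 6-fold, with a log2 fold change of 2.88 (adjusted p = 0.00022). The largest downward differences of R6P from R6N without a name were those of Os.6838.1.S1_at and LOC4337232, given above, and of OsAffx.26317.1.S2_at. The last had 58.7, 71.2 and 61.2 in R6P, 587, 288 and 130 in R6N, and 50.6, 43.9 and 42.4 in R6C (log2 fold change -2.14, adjusted p = 0.001), with R6N replicate 1 at the top.

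Other differential loci with an annotated term were scattered. LOC4328676 (fatty acid biosynthesis) had a log2 fold change of 1.44, LOC4338911 (pyrophosphatase activity) 1.37, LOC4348134 (peptidyl-prolyl isomerase) 1.24 and LOC4348304 (heme binding) 1.11. LOC4348206 (calcium binding and protein kinase activity) had -1.66. The methyltransferase term was shared by LOC4330542 at 1.10 and LOC4323890 at -1.17. All 7 were named after their values were seen. The calls of LOC4348304 and LOC4348206 held only without R6P replicate 1 (otherwise adjusted p up to 0.31 and 0.2), that of LOC4330542 was lost without R6N replicate 1, R6N replicate 3 or R6P replicate 3 (up to 0.11), and LOC4323890 was at -0.99 without R6P replicate 3. Besides JAZ9 and JAZ11, adjacent differential genes with one direction were LOC4351146 and LOC4351147, both up-regulated, and LOC4332422 and LOC4332423, both down-regulated. Of these 4, LOC4351147 kept its call on 1 of its probe sets without each array in turn. The call of LOC4351146 was lost without R6N replicate 1, R6N replicate 3, R6P replicate 1 or R6P replicate 2 (adjusted p up to 0.29), that of LOC4332422 without R6N replicate 1, R6N replicate 2 or R6P replicate 2 (up to 0.18) and that of LOC4332423 without each array but R6N replicate 3 (up to 0.4).

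The same comparison at 24 h used other pots and other arrays. R24P/R24N had 343 up-regulated (0.6%) and 90 down-regulated probe sets (0.157%). Of the 71 probe sets up-regulated at 6 h, 67 were above 0 at 24 h, against 44.8% of all probe sets, and 48 were up-regulated again. Their median log2 fold change at 24 h was 1.36, beside -0.03 over all probe sets. Of the 43 down-regulated at 6 h, 22 were below 0 at 24 h, against 55.2% of all probe sets, and 4 were down-regulated again, with a median of -0.01.

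LIS had 2261, 1840 and 2288 in R24P and 323, 271 and 338 in R24N, a log2 fold change of 2.78 (adjusted p = 1.1e-08) beside 2.42 at 6 h. DXPS had 1614, 1186 and 1620 in R24P and 396, 445 and 466 in R24N (log2 fold change 1.75). Infested arrays of both genes again lay clear of punctured ones, on a level above that of 6 h. The untreated level of LIS was higher at 24 h as well, with 230, 230 and 237 beside 32.6, 44.5 and 46.3 at 6 h. Of the 13 genes of the JAZ list, 6 were up-regulated at 24 h, against 0.6% of all probe sets. JAZ11 had a log2 fold change of 2.48, JAZ13 of 1.36 and JAZ9 of 1.15. Cht11 had 501, 501 and 635 in R24P against 136, 110 and 107 in R24N (log2 fold change 2.21), ABCG36 had a log2 fold change of 1.99, OsRAA1 of 1.74 and OsWRKY62 of 1.11. OsRR9 had a log2 fold change of -0.93 at 24 h (adjusted p = 0.0011).

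The peroxidase gene turned round. It had 403, 275 and 416 in R24P and 102, 74.5 and 98.4 in R24N, with a log2 fold change of 1.98 (adjusted p = 0.00016) beside -3.05 at 6 h. The difference between both times, 24 h minus 6 h, was 5.03 (adjusted p = 1.7e-07). OSE727A turned likewise, with 633, 290 and 377 in R24P against 105, 72.2 and 145 in R24N (log2 fold change 1.99, difference between times 3.49, adjusted p = 0.00027). EXPB11 had 3732, 3691 and 3966 in R24P against 2565, 2500 and 2804 in R24N (log2 fold change 0.53, adjusted p = 0.025; difference between times 1.55, adjusted p = 0.00018). LOC4342946, called in opposite directions like the peroxidase, had 1.19 at 24 h and -1.06 at 6 h (difference 2.25, adjusted p = 2.4e-06). LOC4325422 was the only one of the 71 up-regulated probe sets to be called lower at 24 h, with -1.12 at 24 h and 1.72 at 6 h (difference -2.84, adjusted p = 0.00052). LOC4336228 was lower in all 3 pairs of treatments, with log2 fold changes of -1.86 in RH at 6 h, -2.09 in RH at 24 h and -1.11 in TN1 at 6 h. These last 3 loci were singled out for that pattern. At 6 h, LOC4325422 was not differential without R6N replicate 2 or R6P replicate 2 (adjusted p up to 0.084), and LOC4342946 was under 2-fold without R6N replicate 1, R6N replicate 2 or R6P replicate 3 (-0.95 at the least). For several other genes that were lower in R6P than in R6N at 6 h, no difference remained to be seen at 24 h. Over R6C at 6 h, LOC4337232 had log2 fold changes of 0.08 in R6P and 2.29 in R6N. Those of OsAffx.26317.1.S2_at were 0.48 in R6P and 2.62 in R6N. For R24P over R24N, LOC4337232 had a log2 fold change of 0.08 and OsAffx.26317.1.S2_at of -0.01. Their differences between times were 2.29 (adjusted p = 5.6e-05) and 2.13 (adjusted p = 0.016), the second of which did not pass without R6N replicate 1 (adjusted p = 0.063). Over all probe sets, 2421 differed between times by this test (4.23%). This count was 784 without R24P replicate 3 and 7988 without R24P replicate 1. The share with 24 h above 6 h was 62.4%, against 82.8% after median centring and 51.8% after quantile normalization.

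**Figure D4:**
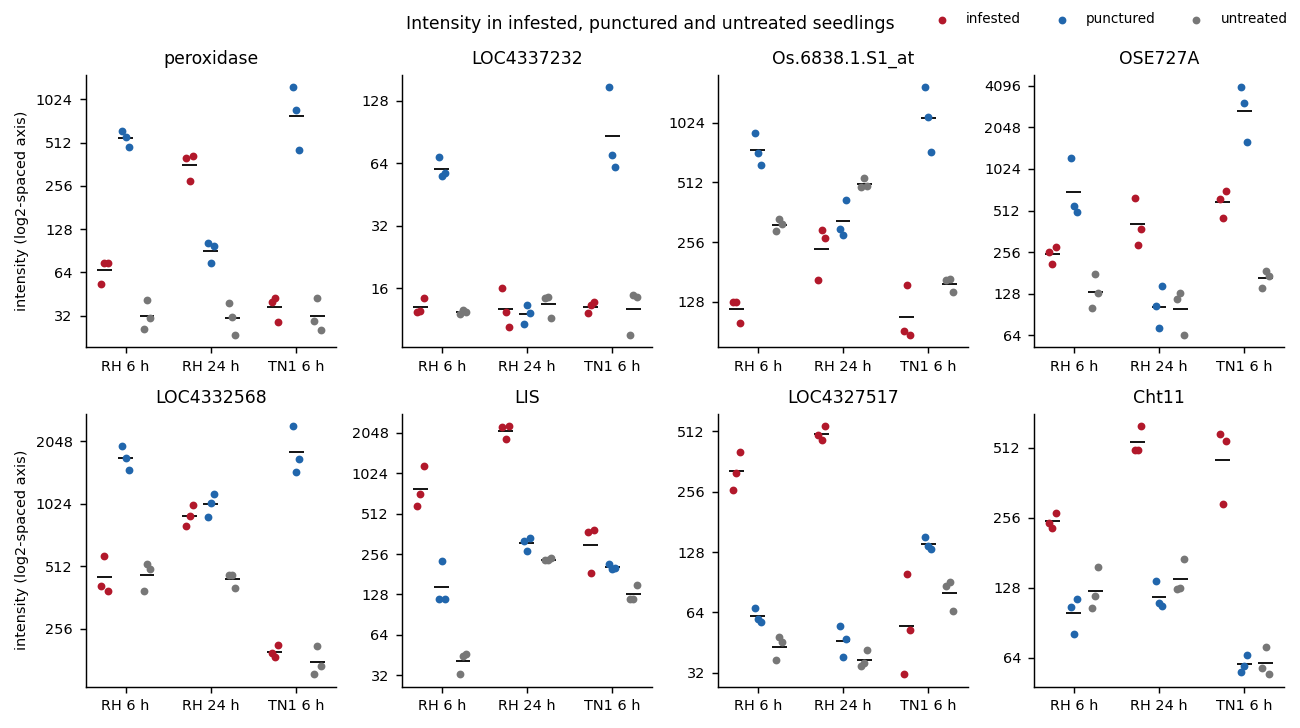
Intensity (log2-spaced axis) of 8 probe sets in infested, punctured and untreated seedlings of RH at 6 h, RH at 24 h and TN1 at 6 h. Dots are arrays and bars are geometric means (n = 3). The peroxidase and OSE727A panels show punctured arrays on top at 6 h in both varieties and infested arrays on top in RH at 24 h, and the LIS and LOC4327517 panels show a wide gap in RH at both times.

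In TN1 at 6 h, T6P/T6N had 25 up-regulated (0.0437%) and 86 down-regulated probe sets (0.15%). Of the 71 probe sets up-regulated in RH, 55 were above 0 in TN1, against 48.9% of all probe sets, and 7 were up-regulated, with a median log2 fold change of 0.39. Of the 43 down-regulated in RH, 35 were below 0 in TN1, against 51.1% of all probe sets, and 22 were down-regulated, with a median of -1.09. The median over all probe sets was -0.00 in TN1.

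The peroxidase had 40, 42.6 and 28.9 in T6P and 1250, 865 and 453 in T6N (log2 fold change -4.43), and OSE727A had 622, 455 and 713 in T6P and 4012, 3068 and 1612 in T6N (log2 fold change -2.21). Punctured TN1 arrays lay above infested ones in both. Os.6838.1.S1_at and LOC4337232 had log2 fold changes of -3.32 and -2.73 in TN1. Cht11 had 590, 293 and 547 in T6P against 55.7, 58.7 and 65.6 in T6N, a log2 fold change of 2.93 beside 1.31 in RH. JAZ13, JAZ9 and JAZ11 had log2 fold changes of 0.77, 0.23 and 0.19 in TN1, none of them differential, ABCG36 had -0.02 and OsRAA1 -0.36. For none of these 10 was the difference between varieties past the test. For ABCG36 it was 1.28 (adjusted p = 0.06).

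**Figure D5:**
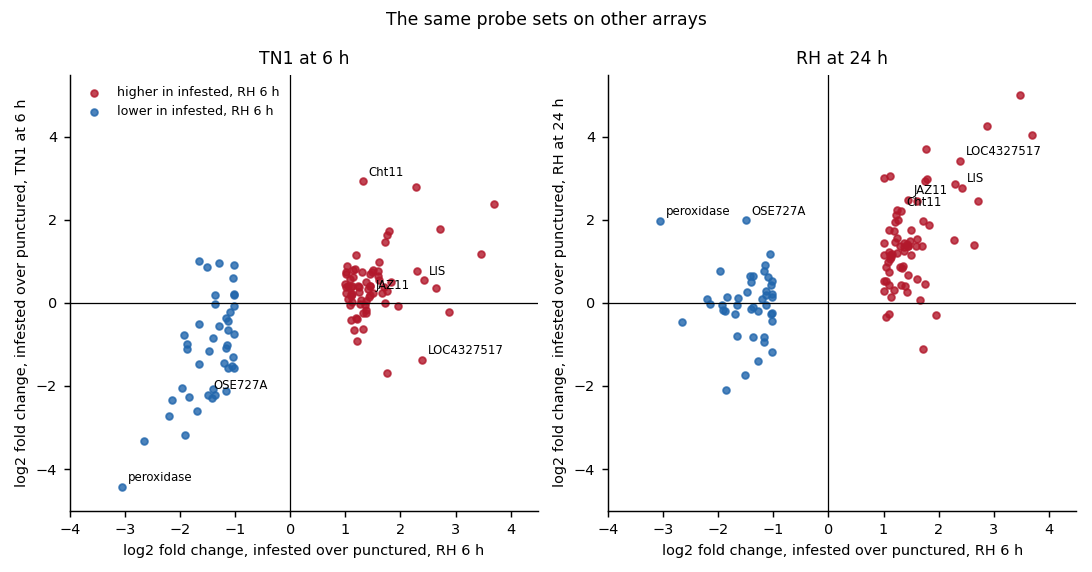
Log2 fold change of infested over punctured seedlings for the 114 differential probe sets in RH at 6 h (horizontal axis) against TN1 at 6 h (left) and RH at 24 h (right). Points are probe sets. On the left the 43 down-regulated ones lie mostly below 0 and the up-regulated ones scatter around a median of 0.39, and on the right the 71 up-regulated ones lie mostly above 0 and the down-regulated ones scatter around 0.

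The difference between R6P/R6N and T6P/T6N was tested for every probe set. It passed in 70 probe sets (0.122%), in 41 with RH above TN1 (0.0717%) and in 29 with RH below TN1 (0.0507%), and 54 of the 70 had opposite signs in the varieties. Selection for a difference favours opposite signs, and their share over all probe sets was not counted. The 54 are therefore not a result about the varieties. The count of probe sets past the test was 24 to 94 with 1 array left out, 24 without R6N replicate 3, and 17 with the groups compared alone. LIS had 373, 184 and 385 in T6P and 215, 196 and 200 in T6N. The T6N arrays lay within the range of the T6P arrays, with a log2 fold change of 0.55 (adjusted p = 0.52). The difference between varieties was 1.87 (adjusted p = 0.021), and it did not pass without T6N replicate 1, T6P replicate 2, R6N replicate 1, R6N replicate 3 or R6P replicate 3 (adjusted p up to 0.11).

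The largest difference belonged to LOC4327517 (Os.6864.1.S1_at), annotated with metal ion transport. It had 261, 319 and 406 in R6P, 67.7, 59.5 and 57.4 in R6N, and 36.9, 48.1 and 45.6 in R6C, whereas TN1 had 31.4, 99.4 and 52.4 in T6P and 153, 137 and 133 in T6N. Infested arrays lay above punctured ones in RH and below them in TN1. The log2 fold change was 2.40 in RH (adjusted p = 1.3e-07) and -1.36 in TN1 (adjusted p = 0.0011), and the difference was 3.76 (adjusted p = 6.4e-08). LOC4338934 was likewise called in opposite directions, with 93, 112 and 157 in R6P against 57.3, 30 and 24.4 in R6N, and 19.6, 12.7 and 16.1 in T6P against 79.3, 43.2 and 39.3 in T6N. Its log2 fold changes were 1.76 in RH and -1.69 in TN1 (difference 3.45, adjusted p = 6.4e-05). Untreated arrays of LOC4338934 had 8.13, 8.82 and 10.1 in RH and 6.37, 9.16 and 7.86 in TN1 at 6 h. Infested and punctured arrays thus both lay above untreated ones in each variety. All its T6P and untreated arrays were below the array median. LOC9266317 had 318, 277 and 282 in R6P and 51.8, 40.3 and 48.4 in R6N, a log2 fold change of 2.65, against 0.37 in TN1 (difference 2.28, adjusted p = 1.7e-05). These 3 differences passed without each array in turn. LOC4324081 was at 11.1 to 13.5 in T6P and 12.8 to 14.7 in T6N, below the array median in all of them. Its difference of 3.10 (adjusted p = 0.022) was lost without any of 7 arrays, T6P replicate 1, T6N replicates 1 and 2, R6P replicates 2 and 3 and R6N replicates 2 and 3 (adjusted p up to 0.092).

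Of the genes with a name, 6 besides LIS had a probe set past this test. CM-LOX1, a lipoxygenase gene, had 24.9, 15.6 and 17.1 in R6P against 45.9, 25.4 and 55.4 in R6N, and 141, 37.5 and 50.1 in T6P against 18.5, 14.4 and 19.8 in T6N. Its log2 fold change was -1.09 in RH and 1.89 in TN1 (difference -2.98, adjusted p = 0.0091, and 0.056 without R6N replicate 3). OsC3H54, lower in R6P than in R6N as given above, had 177, 86.5 and 108 in T6P against 81.3, 88.9 and 65.9 in T6N, a log2 fold change of 0.60 (difference -1.64, adjusted p = 0.012, up to 0.07 without R6P replicate 2, R6N replicate 3 or T6P replicate 1). The auxin carrier gene OsPIN5a had -0.66 in RH and 0.40 in TN1 (difference -1.06, adjusted p = 0.0061), which passed without each array in turn. The kinase gene MAPK6 had 0.26 in RH and -0.34 in TN1 (difference 0.60, adjusted p = 0.022). The beta-glucosidase gene BGLU12 had -0.12 in RH and -0.93 in TN1 (difference 0.81, adjusted p = 0.036). Both probe sets of the exchanger gene MHX1 differed, by 0.80 and 0.71 (adjusted p = 0.012 and 0.036). The MAPK6 difference failed without R6P replicate 3, R6N replicates 2 and 3, T6P replicate 1 or T6N replicates 1 and 3, each left out alone (adjusted p up to 0.12). That of BGLU12 passed only without R6P replicate 1, T6P replicate 2 or T6N replicate 2 and otherwise reached an adjusted p of 0.15. The 0.80 of MHX1 failed without R6P replicate 3, R6N replicate 3 or T6P replicate 1 (adjusted p up to 0.064), and its 0.71 passed only without R6P replicate 1 or T6P replicate 3 (otherwise up to 0.18).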

How the data were processed

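Total RNA of pooled seedling shoots was hybridised to 36 Affymetrix Rice Genome Arrays, 3 in each of 12 groups. Each deposited value is the intensity of a probe set, not on a log scale. Before deposit the authors had condensed and normalized the probes, for which the submitters' notes list RMA and affy (versions not given in the sources used here). They were transformed to log2 with no further scaling or filter. RMA gives log2 values, and how the deposited scale was reached is not given in the sources used here. In limma 3.58.1 (R 4.3.3), 1 mean per group was fitted over 36 arrays and 57194 probe sets, and variances were moderated (24 residual and 6.16 prior degrees of freedom). The study's methods name a one-way ANOVA, which was run as an alternative. Tables and figures were made in Python 3.11.15 with pandas 2.3.3, numpy 2.4.6 and matplotlib 3.10.9. The number of arrays limits precision. Group and replicate were read from the sample labels, and p-values measure the spread between pots.

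The annotation ties 22436 probe sets to 1 gene, 95 to several and 34663 to none, and 3192 carry a name. Gene names were updated through RefSeq, which served for names and neighbours only. Named genes are the 15 largest rises and 15 largest falls among differential probe sets with 1 named gene and no overlap of arrays, genes that the study names (15 of 28 names were tied to 20 probe sets, of which 3 were differential and 6 passed the adjusted p), up to 4 genes per list, the 10 largest differences between varieties each way, and by ID the 3 largest rises and falls without a name. Members and gene lists were chosen with earlier results of these data known. Lists took 1 probe set per gene, the brightest. The fit was tested on simulated data. Alternatives were other scalings, variances, filters, thresholds, a replicate block, the groups compared alone and each array left out.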

Additional observations from a re-analysis of the deposited data

Results flagged for a closer look

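Every result here was singled out because its change in RH at 6 h differed, by limma's test of the difference over all probe sets, from that in TN1 or from that in RH at 24 h. Differences are on the log2 scale, and 23 of the 47 passed the test without each of the 12 arrays in turn.

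Between varieties (R6P/R6N minus T6P/T6N), the genes with a name were LIS at 1.87, BGLU12 at 0.81, MAPK6 at 0.60, both probe sets of MHX1 at 0.80 and 0.71, OsPIN5a at -1.06, OsC3H54 at -1.64 and CM-LOX1 at -2.98. Among loci without a name, RH was above TN1 by 3.76 in LOC4327517, 3.45 in LOC4338934, 3.10 in LOC4324081 and 2.28 in LOC9266317. It was above TN1 by 2.14 in LOC4335518, 2.06 in LOC4345406, 1.97 in LOC4334054, 1.51 in LOC4330542 and 1.27 in LOC4332568. Probe sets Os.46700.1.S1_at, Os.9169.1.S1_x_at and Os.51929.1.S1_at, which have no gene in the annotation, differed by 2.03, 1.97 and 1.96. Os.9169.1.S1_x_at had a log2 fold change of 0.09 in RH and -1.88 in TN1, so that its difference came from TN1. RH was below TN1 in LOC4348206 (-2.67), LOC4352346 (-2.62), LOC4330830 (-2.49), LOC4335374 (-2.41) and LOC4341806 (-2.24). It was below TN1 also in OsAffx.15178.1.S1_s_at (-2.39), Os.16327.1.S1_at (-2.38), OsAffx.11963.1.S1_at (-2.24) and OsAffx.16332.1.S1_x_at (-1.94). LOC4330830 and OsAffx.11963.1.S1_at had log2 fold changes of 0.09 and 0.38 in RH, against 2.58 and 2.62 in TN1.

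Between times (R24P/R24N minus R6P/R6N), the peroxidase gene differed by 5.03, OSE727A by 3.49, EXPB11 by 1.55 and BGLU12 by 0.68. Loci without a name that were lower in R6P than in R6N at 6 h differed by 2.29 (LOC4337232), 2.25 (LOC4342946), 2.20 (Os.6838.1.S1_at), 2.13 (OsAffx.26317.1.S2_at), 1.93 (LOC4350386), 1.73 (LOC4352127), 1.73 (LOC4332568) and 1.24 (OsAffx.16332.1.S1_x_at). Those higher in R6P at 6 h differed by 1.95 (LOC4338934), 1.94 (LOC4344755), -1.26 (LOC9266317), -2.23 (Os.46700.1.S1_at) and -2.84 (LOC4325422). Os.51929.1.S1_at, with -0.12 at 6 h, differed by 2.40.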

How the results depend on the processing

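The 114 calls of R6P/R6N were 112 after median centring (103 shared with the 114), 110 after quantile normalization (104), 103 with trended and robust variances (103), 130 with array weights (113), 101 with the groups compared alone (92), 79 with a mean log2 intensity of at least 6 (76) and 90 at an adjusted p under 0.01. With no minimum fold change they were 401. Median centring moved the median of all probe sets to -0.03 (0.02 as deposited) and gave 60 up-regulated and 52 down-regulated probe sets. The methods' one-way ANOVA called 125 at an unadjusted p and 0 after adjustment, and limma at an unadjusted p, an alternative chosen after seeing the data, called 140. Of the 21 probe sets named from R6P/R6N, 10 kept their call in every alternative, 11 lost it in at least 1 and none changed sign. The OSE727A call was also lost after quantile normalization and with trended variances, and those of OsRAA1, LOC4324081 and OsAffx.26317.1.S2_at with the groups compared alone.

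Replicate numbers did not pair the samples (correlations of same-numbered deviations 0.04, -0.03 and 0.06). With the replicate number as a block, 113 probe sets were called (111 shared), and 89 with the block and the groups compared alone. There ABCG36 lost its call.

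Elsewhere, no minimum fold change gave 1751 for R6P/R6C, 204 for R6N/R6C, 368 for T6P/T6N and 6870 for R24P/R24N, and the adjusted ANOVA gave 1, 0, 0 and 0 for the same 4. With the block and the groups compared alone R6N/R6C had 57, and with the groups compared alone T6P/T6N had 72. The difference between varieties (70) had 160 with array weights, 22 at an adjusted p under 0.01, 17 with the groups compared alone and 20 with the block as well. The difference between times (2421) had 17679, 430, 856 and 378 under these 4, and 62.4% of it was upward, against 82.8% after median centring and 51.8% after quantile normalization. With all probe sets of a gene used, 9 gene lists held a differential member, as with 1 probe set per gene, while counts within single lists could differ.

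With 1 array left out, R6P/R6N had 85 to 142 calls, R6P/R6C 185 to 290, R6N/R6C 67 to 129, T6P/T6N 71 to 153 and R24P/R24N 359 to 566. The lowest of R6N/R6C was without R6N replicate 1 and that of T6P/T6N without T6N replicate 1. The difference between varieties had 24 to 94, with 24 without R6N replicate 3 and 31 to 43 without R6N replicate 1 or 2, R6P replicate 2 or 3, T6P replicate 1 or T6N replicate 1. The difference between times had 784 to 7988. It had 784 to 1390 without R6P replicate 2 or 3, R6N replicate 1 or 2, R24P replicate 3 or R24N replicate 2 or 3, 4388 without R24N replicate 1 and 7988 without R24P replicate 1. Levels below the array median limit what the dim probe sets can show.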
